A study of Mus musculus with 12 samples.

Results

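The genes described here encode potassium, sodium and calcium channel subunits of the mouse. They were chosen by symbol, as the genes named Kcn, Scn (pore and beta subunits) or Cacn on an Affymetrix array, each represented by the probe set with the highest mean signal among those that name that gene alone. Of 119 such genes, the 79 that reached a signal of 20 on at least 1 of 12 arrays were kept, out of 13627 genes kept by the same filter on the whole array. Their values span 7 groups. Induced neurospheres grown from fibroblasts were on 4 arrays. The adult fibroblast-derived pair held replicate 1, grown with EGF and cAMP, and replicate 2, grown with leukaemia inhibitory factor (LIF). The embryonic fibroblast-derived pair held replicate 3, grown with LIF, and replicate 4, grown with LIF and cAMP. The pluripotent pair held an induced pluripotent stem (iPS) cell line, 38C2, and an embryonic stem (ES) cell line, EB3, and from each of these lines primary and secondary neurospheres were hybridised, on 1 array per line and passage. Neurospheres grown from embryonic day 14 ganglionic eminence (GE), where many forebrain neurons are born, were on 1 array, and adult skin fibroblasts were on 1 array. MHM medium was used for all neurospheres, and the mice other than the source of the ES and iPS lines were C57BL/6. The labels name no transgene, sex or animal, and the title of the series speaks of neural stem cells induced directly. Each kind of pluripotent cell is represented by 1 line, and no embryonic fibroblasts were analysed here.

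Ion channels let potassium, sodium or calcium cross the cell membrane. Voltage-gated potassium channels end action potentials and set firing patterns, inward rectifiers and leak channels set the resting potential, sodium channels start action potentials, and calcium channels couple electrical activity to secretion and signalling. Pore subunits form the ion path and accessory subunits change its gating and its delivery to the membrane. In the brain, neurons carry most voltage-gated sodium and calcium channels, while astrocytes and oligodendrocyte precursors are known for inward rectifiers, leak channels and A-type potassium channels. The arrays measure RNA, so nothing below concerns channel protein or currents.

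Promoter windows from RefSeq on GRCm38.p6 were found for 64 of the 79 genes. The windows below are shown for 3 genes that were called lower in induced than in all other neurospheres (Kcnd2, Kcnd3 and Kcnmb4) and for 2 that were higher there than in every other group (Cacna2d2 and Kcnn4). Each holds 300 bases, from 250 before to 50 after the annotated start, written 5′ to 3′ on the strand of the gene, with the GC box GGGCGG in capitals on either strand. The windows lie at chr6:21215096-21215395 (plus strand), chr3:105451640-105451939 (plus), chr10:116473474-116473773 (minus), chr9:107399630-107399929 (plus) and chr7:24370013-24370312 (plus strand).
Kcnd2: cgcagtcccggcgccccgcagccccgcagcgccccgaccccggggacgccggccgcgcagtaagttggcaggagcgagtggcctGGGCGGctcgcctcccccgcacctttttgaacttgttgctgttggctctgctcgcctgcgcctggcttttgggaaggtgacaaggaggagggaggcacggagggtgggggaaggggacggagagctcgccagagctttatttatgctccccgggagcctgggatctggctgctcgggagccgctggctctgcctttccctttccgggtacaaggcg
Kcnd3: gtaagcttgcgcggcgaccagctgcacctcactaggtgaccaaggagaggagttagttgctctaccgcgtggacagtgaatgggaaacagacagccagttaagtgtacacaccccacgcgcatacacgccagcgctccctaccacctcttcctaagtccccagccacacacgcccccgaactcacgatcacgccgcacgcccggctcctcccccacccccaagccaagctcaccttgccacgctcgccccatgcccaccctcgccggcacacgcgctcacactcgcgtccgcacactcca
Kcnmb4: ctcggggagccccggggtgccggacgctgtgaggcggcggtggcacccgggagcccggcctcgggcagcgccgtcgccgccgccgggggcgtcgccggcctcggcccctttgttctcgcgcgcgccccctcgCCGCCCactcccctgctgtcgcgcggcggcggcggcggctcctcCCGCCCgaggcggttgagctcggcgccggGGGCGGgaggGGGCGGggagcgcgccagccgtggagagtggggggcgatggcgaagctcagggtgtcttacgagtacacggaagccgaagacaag
Cacna2d2: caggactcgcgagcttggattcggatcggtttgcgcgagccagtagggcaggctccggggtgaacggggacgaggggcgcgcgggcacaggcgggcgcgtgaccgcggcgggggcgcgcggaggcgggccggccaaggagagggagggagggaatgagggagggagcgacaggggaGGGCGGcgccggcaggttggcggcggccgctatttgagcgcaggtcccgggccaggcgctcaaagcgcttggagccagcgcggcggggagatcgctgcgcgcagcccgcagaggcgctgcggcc
Kcnn4: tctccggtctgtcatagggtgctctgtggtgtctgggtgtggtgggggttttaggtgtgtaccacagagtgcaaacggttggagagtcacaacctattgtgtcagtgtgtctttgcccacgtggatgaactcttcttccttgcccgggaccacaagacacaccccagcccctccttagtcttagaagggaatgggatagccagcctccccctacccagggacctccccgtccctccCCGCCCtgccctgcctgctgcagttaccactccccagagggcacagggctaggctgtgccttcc
The Kcnmb4 window held 4 GC boxes and 48 CG dinucleotides, and the Cacna2d2 window 1 and 43. The Kcnd2 window held 1 GC box and 26 CG dinucleotides, and the Kcnd3 window 0 and 25. The Kcnn4 window held 1 GC box and 6 CG dinucleotides, close to the median of 7 over all 32851 windows of the table. A GC box was in 42.7% of the 96 windows of the channel genes, several of which have more than 1 start, and in 35.7% of all windows. The letters TATAAA on either strand were in 5.21% of the channel windows and 13.6% of all windows. Neither motif contains the other, and a match or its lack in a window is a description of these letters alone.

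The deposited signals were scaled by the submitters to a trimmed mean of 100 on every array, and the arrays had medians between 11.1 and 18.9. The labels were set against marker genes. The adult fibroblasts had all 7 fibroblast markers at 20 or more, the pluripotent cells all 6 pluripotency markers, and the primary, secondary and GE neurospheres all 6 neural stem cell markers. The induced neurospheres had 4 to 6 of the 6 neural stem cell markers at 20 or more, with Fabp7 at 411, 518, 79.8 and 48.1, against 5082 and 5037 in primary, 6338 and 6348 in secondary and 7197 in GE neurospheres. They also showed signal of pluripotency genes, with Pou5f1 at 1787, 2069, 2218 and 1981, against 1.3 in adult fibroblasts. Zfp42 was at 5.2, 79.1, 346 and 475.5, against 3058 and 4299 in iPS and ES cells. Of the 6 pluripotency markers, 2 were called lower in induced neurospheres than in pluripotent cells and 0 higher. The ES-derived primary array stood apart from its iPS-derived partner, with Pou5f1 at 1174 against 9.6 and the heart muscle gene Actc1 at 326 against 8.3. The ES-derived secondary array stood apart too, with the 7 fibroblast markers summing to 7896 against 1116 on its iPS-derived partner, and Col3a1, a fibrillar collagen, at 4165 against 464. Induced embryonic array 3 had the macrophage gene Lyz2 at 1433.5, against at most 42.3 on the other induced arrays.

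Channel genes were found in fewer cultures than most genes. Of the 79, only 6 reached 20 in all 7 groups, or 7.59%, where 61.3% of the 13627 genes did. The count on each array was 22, 24, 19 and 20 in induced neurospheres (adult-derived 1 and 2, then embryonic-derived 3 and 4, the order kept for all values below). It was 23 in iPS and 15 in ES cells, 40 and 37 in iPS- and ES-derived primary neurospheres, 49 and 51 in secondary neurospheres, 37 in GE neurospheres and 16 in fibroblasts. The 4 induced arrays lay in the range of the pluripotent cells and fibroblasts or just above it, and below every other neurosphere array. All genes together varied little, between 70.5% and 82.6% reaching 20 on an array. The group with the highest mean was the secondary neurospheres for 22 channel genes (27.8%, against 9.88% of all genes), GE neurospheres for 15 (18.99%, against 19.4%) and primary neurospheres for 14 (17.7%, against 12.8%). It was the pluripotent cells for 9 (11.4%, against 22.04%), fibroblasts for 7 (8.86%, against 17.8%), induced embryonic-derived neurospheres for 8 (10.1%, against 11.2%) and induced adult-derived neurospheres for 4 (5.06%, against 6.88%). The filter favours the count for secondary neurospheres, since 7 channel genes were kept through these arrays alone and were highest there. Through pluripotent cells alone it kept 4, and through primary neurospheres alone 2. At the edge of the filter, Cacng5 and Kcnc4 reached 21.3 and Kcnj12 reached 21.4, while Kcnj6 reached 19.9, Scn7a 19.6 and Kcng2 19.5. The kept genes comprise 19 of 31 voltage-gated potassium pores, 8 of 15 inward rectifiers, 9 of 12 leak channels with 2 pore domains, 5 of 8 calcium- or sodium-activated potassium channels and 10 of 15 potassium accessory subunits. They further comprise 4 of 8 sodium pores, 3 of 3 sodium accessory subunits, 7 of 9 calcium pores, 12 of 15 calcium accessory subunits and 2 of 3 antisense RNAs, which are no subunits but carry the symbols.

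**Figure D1:**
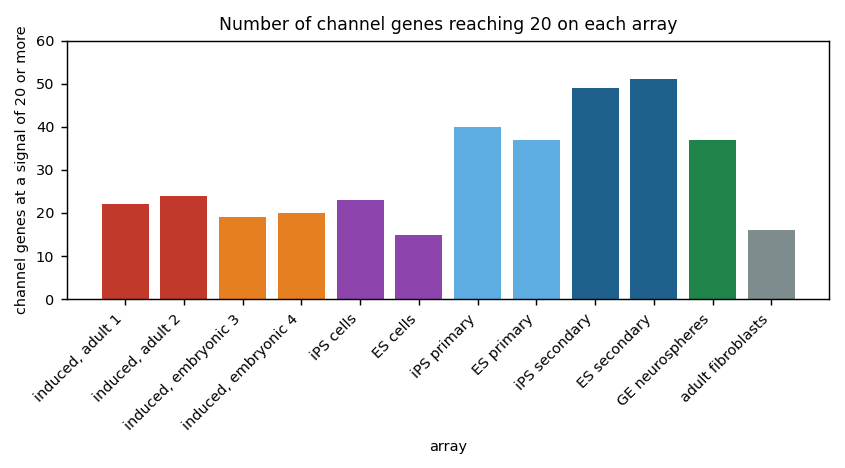
Bars give the number of the 79 channel genes at a signal of 20 or more on each of 12 arrays. The 4 induced arrays hold 19 to 24, the 5 other neurosphere arrays 37 to 51, and the iPS, ES and fibroblast arrays 15 to 23.

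**Figure D2:**
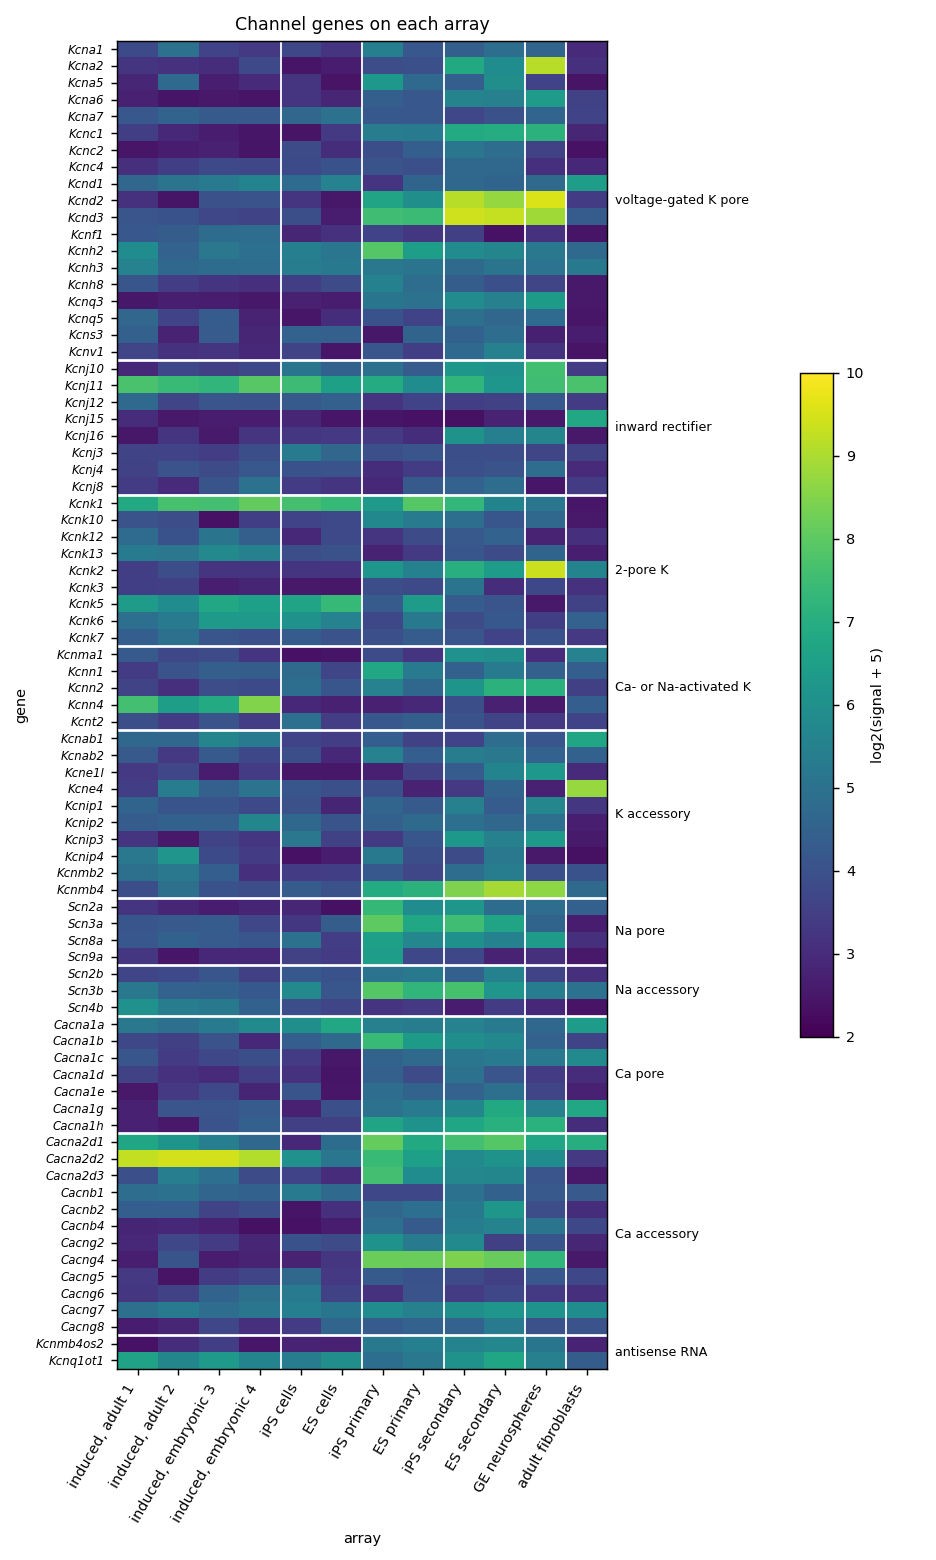
Each row is 1 of the 79 channel genes, grouped by role, and each column 1 array, coloured by log2(signal + 5). Kcnd2, Kcnd3, Kcnmb4 and Cacng4 are bright on the primary, secondary and GE neurosphere arrays, and Cacna2d2 and Kcnn4 on the 4 induced arrays.

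The groups were compared with limma on log2(signal + 5), and a gene was called at an adjusted p under 0.05 over all 13627 genes. Differences are on that scale, where the change of a dim gene is understated, and carry their standard error. Separate cultures within a group are not stated in the labels, so the p-values reflect only how these arrays, which differ in line or medium, spread, and lone arrays were taken to vary like the pairs. The small number of arrays limits the precision. A moderated F test over the 7 groups called 48 of the 79 channel genes (60.8%), against 61.7% of all genes. In whole cultures, fewer cells of a type and less RNA per cell cannot be told apart.

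Most channel genes called between induced neurospheres and the other neurospheres were lower in the induced ones. Against secondary neurospheres 43 of 79 were called (54.4%, with 33.7% of all genes called), 7 higher and 36 lower, where all genes split into 17.0% called higher and 16.7% called lower. Against primary neurospheres 37 were called (46.8%, with 29.9% of all genes called), 6 higher and 31 lower, where 15.6% of all genes were higher and 14.3% lower. Against GE neurospheres 27 were called (34.2%, with 28.5% of all genes called), 8 higher and 19 lower, where 15.7% of all genes were higher and 12.8% lower. The median difference of the channel genes was -1.07 against secondary, -0.64 against primary and -0.31 against GE neurospheres, while that of all genes was 0.05, 0.04 and 0.07. These 3 comparisons share the 4 induced arrays. Since a gene is kept if it reaches 20 on a single array, many were kept through secondary or primary arrays alone, and the counts describe the genes kept. Leaving out the ES-derived secondary array left 28 calls in the first comparison, leaving out the iPS-derived primary array or induced embryonic array 4 left 20 and 24 in the second, and 22, 19 and 22 of the calls in the order given were made in every fit that left out 1 array.

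**Figure D3:**
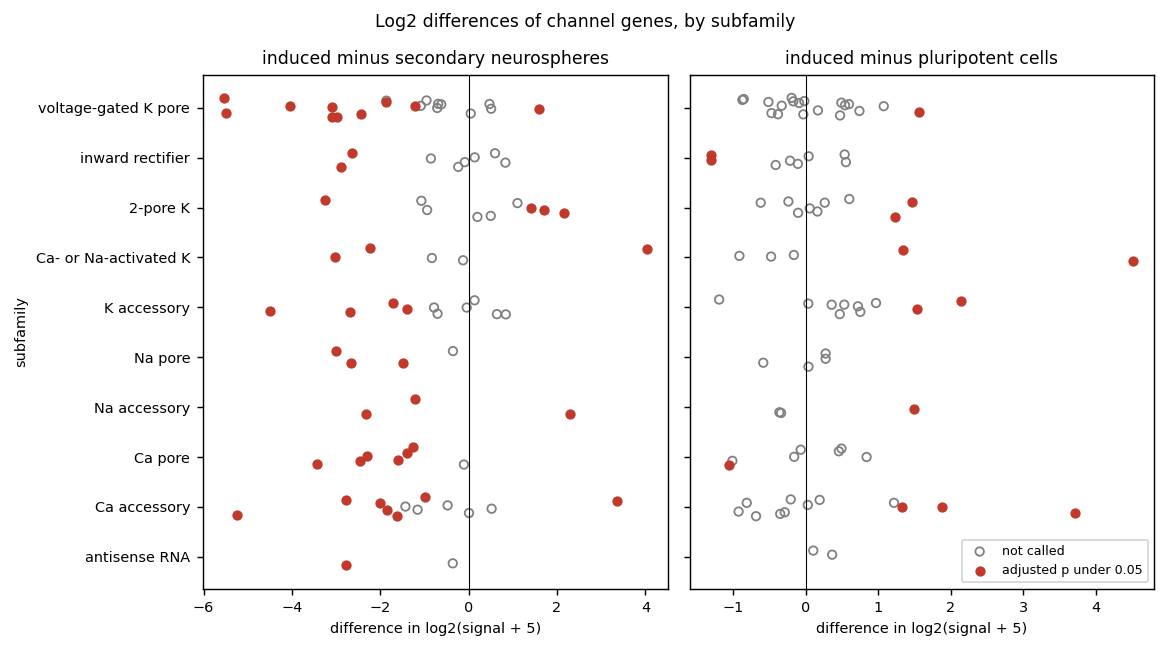
Each point is 1 channel gene, placed by its difference in log2(signal + 5) and by its role, for induced minus secondary neurospheres on the left and induced minus pluripotent cells on the right. Filled points were called by limma. The left panel holds 36 filled points left of 0 and 7 right of it, the right panel 3 left and 11 right.

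Voltage-gated potassium pores were mostly lower where called. Against secondary neurospheres 9 of the 19 fell and 1 rose, against primary neurospheres likewise 9 fell and 1 rose, and against GE neurospheres 6 fell and 0 rose. Of all genes, 16.7%, 14.3% and 12.8% were lower in these comparisons. The filter favours falls against secondary and primary neurospheres. Kcnc2, Kcnc4, Kcns3 and Kcnv1 were kept through secondary arrays alone, and Kcnh8 through primary arrays alone. Kcnd2, a pore of the transient A-type current of dendrites, had signals of 3.9, 0.5, 10.7 and 11.7 in induced neurospheres. It had 4.4 and 0.7 in iPS and ES cells, 96.2 and 58.4 in primary, 563 and 425 in secondary and 746 in GE neurospheres, and 5.7 in fibroblasts. The induced arrays, the pluripotent cells and the fibroblasts were all low and the 5 other neurosphere arrays all high, without overlap. Kcnd2 fell in induced neurospheres against secondary (-5.54 ± 0.35, adjusted p = 4.73e-05), primary (-2.91 ± 0.35, adjusted p = 0.00064) and GE neurospheres (-6.14 ± 0.45, adjusted p = 0.000152). Kcnd3, another A-type pore, had 12.3, 11.1, 7.9 and 7.5 in induced neurospheres, against 674 and 622 in secondary and 181 and 170.0 in primary neurospheres. Again the groups did not overlap, and Kcnd3 fell against secondary (-5.49 ± 0.34, adjusted p = 4.73e-05) and primary neurospheres (-3.63 ± 0.34, adjusted p = 0.000263). The other probe set of Kcnd3 that reached 20 gave -2.45 against secondary and -0.76 against primary neurospheres, and the second of these values was not called. Kcnd1, the third gene of that subfamily, was at 19.7, 28.8, 33.3 and 44.2 in induced, 20.7 and 19.1 in secondary neurospheres and 82.4 in fibroblasts and was named after its values were seen. Markers of the oligodendrocyte lineage, from precursor genes to the myelin genes Mbp and Mag, moved with Kcnd2 and Kcnd3 in part. Of those tested, 6 of 6 fell against secondary and 6 of 6 against GE neurospheres. Against primary neurospheres, where Kcnd2 and Kcnd3 fell, 0 of 6 markers were called. Their summed signal was 63 to 358 on the induced arrays, 123 and 115 in primary, 3776 and 1979 in secondary and 9995 in GE neurospheres, where Mbp alone was at 6578, and their part was not tested.

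Kcna2, a delayed rectifier of axons, had 4.2, 3.8, 3.2 and 8.6 in induced neurospheres, against 9.8 and 10.5 in primary, 110.0 and 54.5 in secondary and 554 in GE neurospheres. It fell against secondary (-3.09 ± 0.36, adjusted p = 0.000472) and GE neurospheres (-5.84 ± 0.46, adjusted p = 0.000197), whereas the difference from primary neurospheres was not called (-0.64 ± 0.36, adjusted p = 0.213). Kcnc1, a pore of fast-spiking neurons, had 6.1, 2.4, 1.1 and 0.6 in induced neurospheres, against 36.8 and 33.3 in primary, 112 and 118 in secondary and 137 in GE neurospheres. The 4 induced values of Kcnc1 were all below the lowest of the other neurosphere arrays. Kcnc1 fell against secondary neurospheres (-4.05 ± 0.34, adjusted p = 0.000117), and the 3 of its 4 probe sets that reached 20 on an array were all called in that direction. Kcnq3, a subunit of the M current that damps repetitive firing, had 0.7, 1.4, 1.2 and 0.7 in induced neurospheres, against 29.3 and 26.6 in primary, 52.9 and 40.2 in secondary and 77.2 in GE neurospheres (-3.09 ± 0.27, adjusted p = 0.000147 against secondary). Kcna6, an axonal pore, had 1.7, 0.5, 0.8 and 0.5 in induced neurospheres, against 16.6 and 13.2 in primary, 42.3 and 39.4 in secondary and 80.9 in GE neurospheres (-2.97 ± 0.28, adjusted p = 0.000195 against secondary). Kcnf1, a silent subunit that gates other pores and forms no channel alone, was the pore gene that rose. It had 13.2, 15.7, 23.2 and 24.3 in induced neurospheres, against 7.1 and 4.9 in primary and 6.5 and 0.3 in secondary neurospheres, and 0.5 in fibroblasts (2.10 ± 0.47, adjusted p = 0.0147 against fibroblasts). Its rises against secondary and primary neurospheres were lost without the ES-derived secondary array (adjusted p = 0.0953) and without any of 8 arrays (up to 0.18).

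Kcnh2, a pore that repolarises the heart, was highest in iPS-derived primary neurospheres, with 54.4, 17.9, 30.8 and 25.5 in induced and 235 and 83.7 in primary neurospheres. The difference (-2.06 ± 0.48) was called with all arrays but had an adjusted p of 0.13 without the iPS-derived primary array. Kcna1, an axonal pore, was at 8.9, 27.6, 7.1 and 5.1 in induced and 38.5 and 13.1 in primary neurospheres and was called in none of the comparisons with induced neurospheres. Kcna5, a pore of heart and smooth muscle, had 2.2, 21.9, 1.4 and 2.9 in induced and 72.3 and 21.4 in primary neurospheres, so that the arrays of the 2 groups overlapped although the difference was called (-2.18 ± 0.68), and the call was lost without any of 5 arrays (adjusted p up to 0.315).

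Among inward rectifiers, Kcnj10 and Kcnj16, which form the potassium-buffering channel of astrocytes together, fell against both secondary and GE neurospheres, and no inward rectifier rose in a comparison with induced neurospheres. Against pluripotent cells, 2 of the 8 inward rectifiers fell. Kcnj10 had 2.6, 8.3, 6.5 and 8.3 in induced neurospheres, all below its 29.2 and 17.4 in iPS and ES cells. It had 25.9 and 15.2 in primary, 69.8 and 60.5 in secondary and 185 in GE neurospheres. The difference was -2.65 ± 0.35, adjusted p = 0.000887 against secondary and -4.09 ± 0.45, adjusted p = 0.000549 against GE neurospheres. Kcnj16 had 0.7, 4.2, 1 and 4.4 in induced, 5.1 and 3.2 in primary, 62.9 and 39.2 in secondary and 44.8 in GE neurospheres, so that the induced and primary arrays were both low (-2.89 ± 0.36, adjusted p = 0.000648 against secondary). The astrocyte list moved with these genes in part. Of its 6 members, 0 rose and 4 fell against secondary and 0 rose and 5 fell against GE neurospheres, and its summed signal was 3238 to 3692 on the induced arrays, 1134 and 3168 in primary, 5639 and 7857 in secondary and 17001 in GE neurospheres. Most of the induced sum was Gja1, at 2871, 2734, 2668 and 2809.8, and against primary neurospheres 1 astrocyte marker rose and 2 fell. Gfap, the defining astrocyte filament, was at 0.2 to 0.5 on the induced arrays, 0.2 and 3 in secondary and 514 in GE neurospheres. The part of astrocytes in these differences was not tested. Kcnj11, the pore of the ATP-sensitive channel, was the channel gene at 50 or more on every array (205, 162, 148 and 237 in induced neurospheres, 204 in fibroblasts), and neither the F test (adjusted p = 0.255) nor any comparison called it. It was named after its values were seen. These rest on 1 of 2 probe sets of Kcnj11, as the other had a maximum of 11.9 over all arrays.

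The leak channels did not move as a group. Kcnk2, a stretch-sensitive leak channel of neurons and glia, had 6.2, 9.9, 4.5 and 4.3 in induced neurospheres and 4.2 and 4.2 in iPS and ES cells. It had 68.5 and 41 in primary, 124 and 80.2 in secondary and 647 in GE neurospheres, and 44 in fibroblasts. The 4 induced arrays were below the fibroblasts too, and Kcnk2 fell against GE (-5.89 ± 0.40, adjusted p = 0.000113), secondary (-3.25 ± 0.31, adjusted p = 0.000205) and primary neurospheres (-2.40 ± 0.31, adjusted p = 0.000872) and against fibroblasts (-2.15 ± 0.40, adjusted p = 0.00745). Kcnk1, a weak inwardly rectifying leak channel, had 112, 199, 188 and 267 in induced neurospheres, against 194 and 161 in iPS and ES cells, 30.3 in GE neurospheres and 0.6 in fibroblasts. It rose against fibroblasts (5.07 ± 0.72, adjusted p = 0.00273), and its rise against GE neurospheres (2.41 ± 0.72) reached an adjusted p of 0.0815 without 1 of the arrays adult-derived 2 or embryonic-derived 3 or 4. Kcnk5, an alkaline-activated leak channel of epithelia, had 79, 53.8, 103 and 86.8 in induced neurospheres and 96.8 and 158 in iPS and ES cells. It had 14.8 and 79.4 in primary, 15.2 and 12.4 in secondary and 0.8 in GE neurospheres (3.85 ± 0.68, adjusted p = 0.00417 against GE), so that the ES-derived primary array lay with the induced arrays and its iPS-derived partner did not. Kcnk13, a leak channel known from microglia, had 33.1, 30.9, 48.9 and 39.9 in induced neurospheres, above all 8 other arrays, which ran from 1.4 to 18.8. It rose against primary neurospheres (2.34 ± 0.29, adjusted p = 0.000707), pluripotent cells (1.47 ± 0.29, adjusted p = 0.0074) and fibroblasts (2.74 ± 0.37, adjusted p = 0.00236), and its call against secondary neurospheres (1.41 ± 0.29) was lost without the ES-derived secondary array (adjusted p = 0.0594). These rises rest on 1 of 2 probe sets of Kcnk13, as the other had a maximum of 3.1 over all arrays. Of the 4 blood and microglia markers tested, 3 rose against primary and secondary neurospheres, with a summed list signal of 119 to 1853 on the induced arrays, 25.3 and 48.9 in primary and 33.4 and 75.6 in secondary neurospheres. In fibroblasts the list summed to 684, above 3 of the 4 induced arrays, with Lyz2 at 348 and Csf1r at 307. In induced neurospheres against fibroblasts 1 marker rose and 1 fell. The leukocyte gene Ptprc was at 90.6, 40.2, 41.1 and 5.8 on the induced arrays and 4.7 in fibroblasts. The part of blood cells was not tested. Kcnk10, a leak channel related to Kcnk2, had 11.4, 9.9, 0.2 and 6.1 in induced and 48.1 and 33.2 in primary neurospheres (-2.05 ± 0.39), a call lost without the iPS-derived primary array (adjusted p = 0.0588). Kcnk6, another leak channel, had 25.6, 35.6, 74.2 and 74.9 in induced and 9.5 and 13.3 in secondary neurospheres (1.70 ± 0.42), a call lost without either secondary array (adjusted p up to 0.105). Kcnk12 had 22.5, 11.1, 28.9 and 16.6 in induced and 2 in GE neurospheres (1.77 ± 0.52), a call lost without induced array 1 or 3 (adjusted p up to 0.0759).

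Calcium-activated potassium channels moved in opposite directions. Kcnn4, the intermediate-conductance channel known from lymphocytes, red cells and secretory epithelia, had 190.5, 82.4, 113 and 351 in induced neurospheres. It had 2.6 and 1.7 in iPS and ES cells, 1.7 and 2.4 in primary, 10.3 and 1.6 in secondary and 1 in GE neurospheres, and 16.2 in fibroblasts. Every induced array was above every other array. Kcnn4 rose against GE (4.77 ± 0.70, adjusted p = 0.00185), primary (4.54 ± 0.54, adjusted p = 0.000639) and secondary neurospheres (4.03 ± 0.54, adjusted p = 0.000987), pluripotent cells (4.52 ± 0.54, adjusted p = 0.000923) and fibroblasts (2.95 ± 0.70, adjusted p = 0.0185). Its second probe set was called in the same direction in all 5 comparisons. Of the epithelial markers, 6 of 6 rose against secondary and 5 of 6 against GE neurospheres, with a summed signal of 2165 to 7202 on the induced arrays, 71.5 and 139 in secondary and 85.5 in GE neurospheres. The same sum was 2402 in iPS cells, 3236 in ES cells and 2009.6 in ES-derived primary neurospheres. Against pluripotent cells 3 of 6 markers rose and 0 fell. Cdh1 was at 529, 937, 1021 and 1395 in induced neurospheres, against 1792, 2179 and 1026 on those 3 arrays. Krt19 was at 183, 266.5, 497 and 576 in induced neurospheres, against 8.1, 8.8 and 30.4 there. The part of epithelial cells was not tested. Kcnn2, a small-conductance channel of neurons, had 7.5, 3.7, 9.7 and 8.9 in induced neurospheres, against 65 and 137 in secondary and 131 in GE neurospheres (-3.03 ± 0.41, adjusted p = 0.00101 against secondary). Kcnma1, the pore of the large-conductance (BK) channel, had 14.2, 8.2, 9.5 and 4.4 in induced neurospheres, against 9.4 and 4.2 in primary, 61.3 and 57.5 in secondary and 3 in GE neurospheres. It fell against secondary neurospheres (-2.24 ± 0.34, adjusted p = 0.00167) on all 5 of its probe sets. Its differences from fibroblasts (-1.79 ± 0.44) and pluripotent cells (1.34 ± 0.34) were called on 1 probe set and on none of the other 4.

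Among potassium accessory subunits, Kcnmb4, the brain beta subunit of the BK channel, had the largest difference from secondary neurospheres. It had 10.2, 25.9, 11 and 9.8 in induced neurospheres and 15.3 and 10.7 in iPS and ES cells. It had 117 and 135 in primary, 344 and 482 in secondary and 394 in GE neurospheres, and 22.3 in fibroblasts, with the highest induced array below the lowest of the 5 other neurosphere arrays. Kcnmb4 fell against secondary (-4.50 ± 0.33, adjusted p = 7.24e-05), GE (-4.45 ± 0.43, adjusted p = 0.00033) and primary neurospheres (-2.84 ± 0.33, adjusted p = 0.000564). Kcnmb4os2, named for the opposite strand of Kcnmb4, had 0.3, 3.2, 6.3 and 0.6 in induced neurospheres, against 32.7 and 38.4 in primary, 42.7 and 46.6 in secondary and 29.4 in GE neurospheres (-2.78 ± 0.36, adjusted p = 0.00083 against secondary). Kcnip3, a calcium sensor that binds the A-type pores, had 4.5, 0.9, 7.6 and 4.6 in induced and 74.2 in GE neurospheres (-3.13 ± 0.65, adjusted p = 0.00885). Kcnip4, of the same family, was uneven in induced neurospheres, with 31.9 and 67.7 in the adult-derived pair and 8.9 and 5.4 in the embryonic-derived pair. Kcnip1, likewise of that family, was at 18.9, 11.9, 11.9 and 8.5 in induced, 40.2 and 14.9 in secondary and 46.6 in GE neurospheres. On this probe set it was called in no comparison with induced neurospheres. Another of its probe sets that reached 20 had 2, 7.6, 4.7 and 1.4 in induced neurospheres. It had 29.8 and 15 in primary, 56.1 and 23.8 in secondary and 34.8 in GE neurospheres, all above the induced values. Kcnab2, a beta subunit of the Kcna pores, had 13.7, 5.1, 14.3 and 8.4 in induced and 36.5 and 32.2 in secondary neurospheres (-1.40 ± 0.46), with a call lost without 1 of 5 arrays (adjusted p up to 0.184). Kcnq1ot1, an imprinted antisense RNA within Kcnq1, had 92.7, 45.8, 73 and 43.6 in induced neurospheres and 15.6 in fibroblasts (1.68 ± 0.49), a call lost without induced array 1, 3 or 4 (adjusted p up to 0.0943). Kcnq1 itself, like Kcne3 and Scn1a, stayed below 20 on all arrays.

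All 4 sodium pores kept, of 8 on the array, fell in induced against primary neurospheres. This count is favoured by the filter, since Scn9a was kept through the iPS-derived primary array alone. Scn3a, the pore prominent in embryonic brain, had 12.7, 13.9, 15 and 8.1 in induced neurospheres, against 253 and 106 in primary, 184 and 96.5 in secondary and 19.1 in GE neurospheres. It fell against primary (-3.30 ± 0.47, adjusted p = 0.00127) and secondary neurospheres (-3.01 ± 0.47, adjusted p = 0.00193), whereas the GE array lay close to the induced ones (-0.49 ± 0.60, adjusted p = 0.584). These differences rest on 1 of 2 probe sets of Scn3a, as the other had a maximum of 4.1 over all arrays. Scn2a, a pore of axon initial segments, had 4.2, 2.2, 1.1 and 2.1 in induced neurospheres, against 157 and 53.7 in primary and 70.9 and 23.6 in secondary neurospheres (-3.74 ± 0.51, adjusted p = 0.00111 against primary). Its call against secondary neurospheres (-2.67 ± 0.51) was lost without the iPS-derived secondary array (adjusted p = 0.0528). Scn8a, the pore of nodes of Ranvier, had 13.1, 17.2, 14.7 and 12.6 in induced, 86.2 and 47.1 in primary and 78.3 in GE neurospheres, and its call against primary neurospheres (-1.84 ± 0.46) was lost without the iPS-derived primary array or induced embryonic array 4 (adjusted p up to 0.151). Scn9a, known from sensory neurons and named after its values were seen, was at 4.7, 0.6, 2.4 and 2.6 in induced and 82.5 and 8.3 in primary neurospheres, high on the iPS-derived array alone. Its call (-2.20 ± 0.68) was lost without any of 7 arrays (adjusted p up to 0.343).

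The sodium accessory subunits split. Scn3b, a beta subunit of embryonic neurons, had 31.5, 17.7, 17.3 and 13.4 in induced neurospheres, against 233 and 149 in primary and 197 and 67 in secondary neurospheres (-2.99 ± 0.55, adjusted p = 0.00414 against primary). Scn4b, a beta subunit of heart and brain, went the other way. It had 61.3, 35.7, 32.8 and 17.5 in induced neurospheres, against 10.1 and 7.7 in iPS and ES cells, 4.5 and 5.1 in primary, 1.1 and 5.4 in secondary and 2.5 in GE neurospheres, and 0.4 in fibroblasts, with every induced array above all others. It rose against fibroblasts (2.85 ± 0.48, adjusted p = 0.00514), GE (2.38 ± 0.48, adjusted p = 0.0079), secondary (2.29 ± 0.38, adjusted p = 0.00248) and primary neurospheres (1.99 ± 0.38, adjusted p = 0.00483), and its call against pluripotent cells (1.49 ± 0.38) was lost without ES cells or induced embryonic array 3 (adjusted p up to 0.107). The neuron list moved with the sodium pores in part. Of its 8 markers, 8 fell in induced against primary neurospheres and 4 against secondary neurospheres, while 2 rose and 2 fell against GE neurospheres. Its summed signal was 892 to 2379 on the induced arrays, 14968 and 6076 in primary, 5360 and 2099 in secondary and 2046 in GE neurospheres. Most of the induced sum was Stmn2, at 1368, 767, 615 and 545, against 1506 and 2276 in iPS and ES cells. On the induced arrays Rbfox3, the defining marker of mature neurons, was at 8.8, 11.3, 20 and 49.8. The part of neurons in these differences was not tested.

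Of the 7 calcium pores kept, 6 were called lower against secondary and 3 against primary neurospheres. This count is favoured by the filter, since Cacna1d was kept through the iPS-derived secondary array alone and Cacna1e through primary and secondary arrays alone. A second probe set of Cacna1d, below 20 on all arrays, had 8.8, 11.2, 10.4 and 13.6 in induced and 9.4 and 2.1 in secondary neurospheres, and no induced value lay below both secondary ones. Cacna1d and Cacna1e are named here after their values were seen. Cacna1h, a T-type pore that opens near the resting potential, had 1.7 and 0.9 in the adult-derived and 11.5 and 17 in the embryonic-derived induced pair. It had 96.4 and 63.3 in primary, 100.3 and 129 in secondary and 134 in GE neurospheres. The induced arrays were all below the others, and Cacna1h fell against GE (-3.67 ± 0.38, adjusted p = 0.000404), secondary (-3.44 ± 0.29, adjusted p = 0.000119) and primary neurospheres (-2.93 ± 0.29, adjusted p = 0.000319). Cacna1b, the N-type pore of presynaptic terminals, had 8.4, 6.5, 11.7 and 2.6 in induced neurospheres, against 166 and 77.6 in primary, 57.9 and 48.3 in secondary and 17.7 in GE neurospheres (-3.33 ± 0.41, adjusted p = 0.000742 against primary). Cacna1g, another T-type pore, had 1.6, 12.2, 12.2 and 14.5 in induced neurospheres, against 45.9 and 112 in secondary neurospheres and 103 in fibroblasts (-2.95 ± 0.67, adjusted p = 0.0158 against fibroblasts). Its call against secondary neurospheres (-2.47 ± 0.52) was lost without the ES-derived secondary array (adjusted p = 0.0803). Cacna1c, the L-type pore of heart and smooth muscle, had 12.5, 5.8, 8.3 and 10.1 in induced neurospheres, against 30 and 33.7 in secondary neurospheres and 50.8 in fibroblasts (-2.00 ± 0.45, adjusted p = 0.0154 against fibroblasts). Its call against secondary neurospheres (-1.40 ± 0.35) was lost without either secondary array (adjusted p up to 0.0966). Cacna1a, the P/Q-type pore, was the calcium pore not called against secondary neurospheres and reached 20 on every array, with 31.8, 26.3, 33.7 and 51.4 in induced, 39.9 and 37.2 in primary and 41.6 and 34.5 in secondary neurospheres.

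Among calcium accessory subunits, Cacna2d2 and Cacng4 lay at opposite ends. Cacna2d2, a subunit that brings calcium pores to the membrane, had 607, 696, 702 and 534 in induced neurospheres. It had 61.7 and 29.9 in iPS and ES cells, 163 and 86 in primary, 51.4 and 63.1 in secondary and 54.4 in GE neurospheres, and 5 in fibroblasts. The lowest induced array was above every other array. It rose against fibroblasts (5.99 ± 0.44, adjusted p = 0.00031), pluripotent cells (3.72 ± 0.34, adjusted p = 0.000316), GE (3.42 ± 0.44, adjusted p = 0.00098), secondary (3.36 ± 0.34, adjusted p = 0.000274) and primary neurospheres (2.36 ± 0.34, adjusted p = 0.00143). The rise rests on 1 of 3 probe sets of Cacna2d2, as the others had maxima of 7.7 and 7.5 over all arrays. Cacng4, classed with calcium channels by symbol and known for carrying AMPA receptors to synapses, had 1.4, 12, 1.1 and 1.9 in induced neurospheres. It had 1.8 and 4.6 in iPS and ES cells, 288 and 285 in primary, 337 and 277 in secondary and 146 in GE neurospheres. The groups of induced and other neurospheres did not overlap, and Cacng4 fell against secondary (-5.24 ± 0.39, adjusted p = 8.28e-05), primary (-5.15 ± 0.39, adjusted p = 0.000139) and GE neurospheres (-4.20 ± 0.51, adjusted p = 0.000754). Cacnb4, a beta subunit of brain calcium channels named after its values were seen, had 2.1, 2.6, 1.6 and 0.1 in induced neurospheres, against 25.6 and 14.4 in primary, 36.6 and 43 in secondary and 28.7 in GE neurospheres (-2.78 ± 0.31, adjusted p = 0.000427 against secondary). Cacna2d1, the widely expressed relative of Cacna2d2, had 101, 65.6, 38 and 20.9 in induced neurospheres, against 272 and 111 in primary and 188 and 234 in secondary neurospheres. The 3 of its 5 probe sets that reached 20 on an array disagreed in sign, since the difference from primary neurospheres was -1.74 on the brightest, -1.44 on another and 1.58 on the third. Cacnb1, a beta subunit of muscle, disagreed as well, called higher on the brighter and at -1.37 on the other of the 2 probe sets, out of 4, that reached 20, against primary neurospheres. Cacng7 was at 26, 35, 24 and 30.6 in induced and 57.9 and 66.7 in secondary neurospheres, with a call lost without either secondary array or induced array 1 or 3 (adjusted p up to 0.133). Cacng5, its relative, reached 20 in iPS cells alone. Cacnb2, a beta subunit prominent in heart, had 16.1, 16.2, 7.6 and 10.1 in induced neurospheres, against 20.2 and 25.4 in primary and 32.4 and 69.7 in secondary neurospheres. Its call against secondary neurospheres (-1.63 ± 0.36) was lost without the ES-derived secondary array (adjusted p = 0.0921). Cacna2d3, a relative of Cacna2d2, had 10.5, 37.6, 25.3 and 9.2 in induced and 189 and 54.1 in primary neurospheres (-2.21 ± 0.59), a call lost without the iPS-derived primary array or induced array 1 or 4 (adjusted p up to 0.214).

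**Figure D4:**
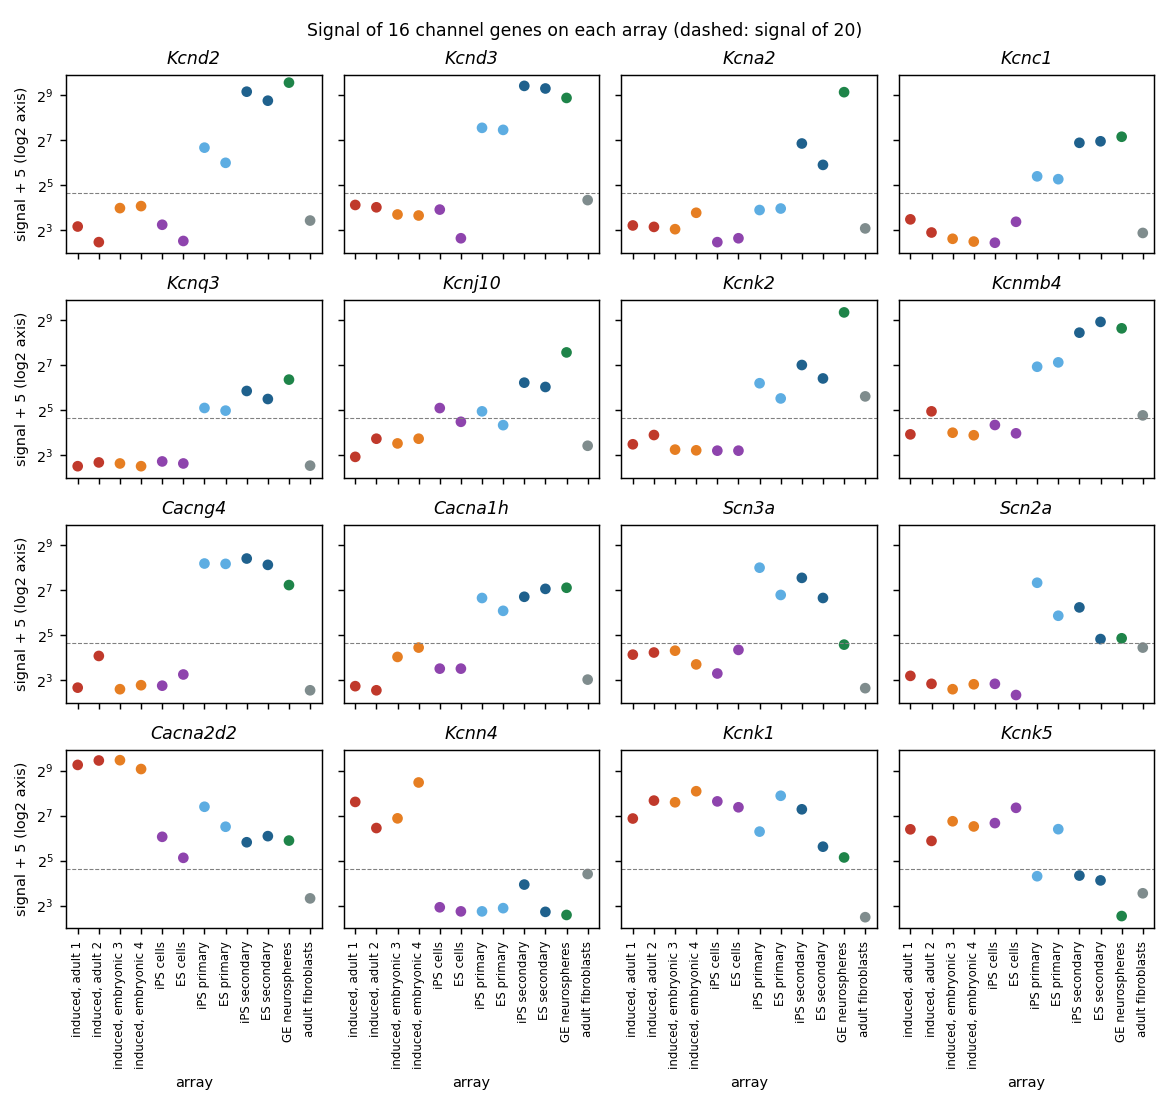
Each panel plots the signal of 1 channel gene on the 12 arrays as signal + 5 on a log2 axis, with a dashed line at a signal of 20. Kcnd2, Kcnd3, Kcnc1, Kcnq3, Kcnmb4 and Cacng4 are low on the 4 induced arrays and high on the 5 other neurosphere arrays, while Cacna2d2 and Kcnn4 are highest on the induced arrays.

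Against adult fibroblasts, 16 of 79 channel genes were called in induced neurospheres (20.3%, with 23.3% of all genes called), 10 higher and 6 lower, where 15.0% of all genes were higher and 8.23% lower. The fibroblasts were 1 array and the comparison includes the embryonic-derived pair, whose source was not analysed here. The rises are those of Cacna2d2, Kcnk1, Kcnn4, Scn4b, Kcnk13 and Kcnf1 given above, together with Kcnk5, Kcnip2, Kcnip4 and Kcnq1ot1. Kcne4, which inhibits Kcna and Kcnq1 pores, had 6.1, 36, 16.9 and 28.2 in induced neurospheres and 429.6 in fibroblasts (-4.18 ± 0.77, adjusted p = 0.00696). Kcnj15, an inward rectifier of kidney and other epithelia, had 3.1, 0.9, 1.2 and 1.1 in induced neurospheres and 104 in fibroblasts (-4.06 ± 0.41, adjusted p = 0.00082), and it stayed below 20 on all 11 other arrays. Both genes were highest on the fibroblast array. The smooth muscle markers Acta2, Tagln, Cnn1 and Myh11 were also high there, with Acta2 at 139, 372, 338 and 214 in induced neurospheres and 8338 in fibroblasts, and these 4 of 8 muscle markers and 3 of 7 fibroblast markers fell with Kcne4, Cacna1g and Cacna1c. The muscle list summed to 297 to 497 on the induced arrays and 14291 in fibroblasts, and the fibroblast list to 640 to 4811 on the induced arrays and 29727 in fibroblasts, and the part of muscle-like cells was not tested. The call of Kcnk5 was lost without induced embryonic array 3 (adjusted p = 0.0505) and that of Kcnip4 without any of 5 arrays (up to 0.092). The median difference of all genes was 0.22 with the deposited scale and -0.01 with a common median.

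Against the pluripotent cells, induced neurospheres differed in few channel genes. Of 79, 14 were called (17.7%, with 30.2% of all genes called), 11 higher and 3 lower, where 20.4% of all genes were higher and 9.79% lower, and the median difference was 0.04, with 0.16 over all genes. Kcnn4, Cacna2d2 and Kcnk13 were called in every fit that left out 1 array. Kcnj3, an inward rectifier opened by G proteins, had 7.5, 7.1, 6 and 10.2 in induced neurospheres and 34.8 and 19.7 in iPS and ES cells (-1.31 ± 0.31), with an adjusted p of 0.0873 without the iPS array. The neuronal pores Kcnd2, Kcnc1, Kcnq3 and Scn2a were low on both sides. Their differences were 0.54 ± 0.35, -0.04 ± 0.34, -0.09 ± 0.27 and 0.27 ± 0.51, and none was called. The number of calls was 8 without iPS cells, 8 without ES cells, 9 without induced adult array 1 and 5 without induced embryonic array 3. With a common median, which moved the median of all genes to -0.23, 9 of 17 calls were higher, and with quantile normalization 9 of 15.

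Along the differentiation of the iPS and ES lines, most channel genes called at the primary neurosphere stage were higher. In primary neurospheres 29 of 79 were called against pluripotent cells (36.7%, with 30.2% of all genes called), 28 higher and 1 lower, where 19.3% of all genes were higher and 10.9% lower. Of the voltage-gated potassium pores 9 of 19 rose, of the sodium pores 3 of 4, of the calcium pores 3 of 7 and of the calcium accessory subunits 6 of 12, while 0 of 8 inward rectifiers were called. These counts describe the genes kept by the filter. It kept 2 genes through primary neurospheres alone (Kcnh8 and Scn9a), 7 through secondary neurospheres alone and 4 through pluripotent cells alone. The largest rises were those of Cacng4 (5.18 ± 0.46, adjusted p = 0.000285), Kcnd3 (4.23 ± 0.40, adjusted p = 0.000353) and Scn2a (4.01 ± 0.59, adjusted p = 0.00206). Cacng4 had 1.8 in iPS cells, 288 in primary and 337 in secondary neurospheres of that line, and 4.6 in ES cells, 285 and 277 in the ES line. The iPS- and ES-derived values lay close together at each stage. Scn3a had 4.9, 253 and 184 along the iPS line and 15.5, 106 and 96.5 along the ES line (3.57 ± 0.54, adjusted p = 0.00227). Kcnmb4 had 15.3, 117 and 344 along the iPS line and 10.7, 135 and 482 along the ES line (2.87 ± 0.38, adjusted p = 0.0014). On the second probe set of Kcnd3 the rise was 0.39 and not called, and the 2 of 4 probe sets of Cacnb1, the gene called lower, that reached 20 had opposite signs (-1.30 and 1.38). Of the neuron markers 7 of 8 rose and 0 fell, with a summed signal of 14968 and 6076 in primary neurospheres and 1839 and 3015 in pluripotent cells, and their part was not tested. The 28 rises among 29 calls became 25 of 34 with a common median and 24 of 31 with quantile normalization, which moved the median of all genes from 0.05 to -0.25 and -0.06. Leaving out the iPS-derived primary array left 14 calls and leaving out ES cells left 18.

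Between primary and secondary neurospheres the calls were few, and all were rises. Of 79 channel genes 5 were called (6.33%, with 2.79% of all genes called), all higher in secondary neurospheres, where 2.0% of all genes were higher and 0.793% lower, and 24 had an unadjusted p under 0.05 (30.4%, with 20.4% of all genes). They were Kcnd2 (2.63 ± 0.40), Kcnj16 (2.59 ± 0.41), Kcnma1 (2.48 ± 0.39), Kcna2 (2.45 ± 0.41) and Kcnd3 (1.85 ± 0.40), with adjusted p between 0.0186 and 0.0484. Kcnma1 had 61.3 and 57.5 in secondary neurospheres, against 9.4 and 4.2 in primary neurospheres, and Kcnj16 had 62.9 and 39.2 in secondary neurospheres, against 5.1 and 3.2 in primary neurospheres. The 2 groups did not overlap for any of the 5. The oligodendrocyte list moved with them, as 5 of 6 tested markers rose and its summed signal was 3776 and 1979 in secondary and 123 and 115 in primary neurospheres, and so did 2 of 6 astrocyte markers. Gpr17, a marker of committed oligodendrocyte precursors, was at 204 and 83.8 in secondary neurospheres, against 1.6 and 4 in primary neurospheres, and the part of these cells was not tested. Each of the 5 calls was lost in some fit. The count was 2 without the iPS-derived primary array, 1 without the ES-derived primary array, and 0 without the iPS-derived or without the ES-derived secondary array.

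Secondary neurospheres differed from GE neurospheres in 3 of 79 channel genes (3.80%, with 3.9% of all genes called, 2.4% higher and 1.5% lower). Kcnma1 was higher in secondary neurospheres (3.01 ± 0.48), with 61.3 and 57.5 there and 3.0 in GE neurospheres. Kcna2 (-2.76 ± 0.50) and Kcnk2 (-2.64 ± 0.44) were lower, with Kcna2 at 110.0 and 54.5 in secondary and 554.5 in GE neurospheres and Kcnk2 at 124 and 80.2 in secondary and 647 in GE neurospheres. The GE group is 1 array, all 3 calls were lost without the ES-derived secondary array (adjusted p up to 0.0806), and 16 channel genes had an unadjusted p under 0.05 (20.3%, with 17.9% of all genes). Kcnd3, Kcnmb4 and Kcnj10 were not called (0.48 ± 0.49, 0.05 ± 0.47 and -1.44 ± 0.49).

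**Figure D5:**
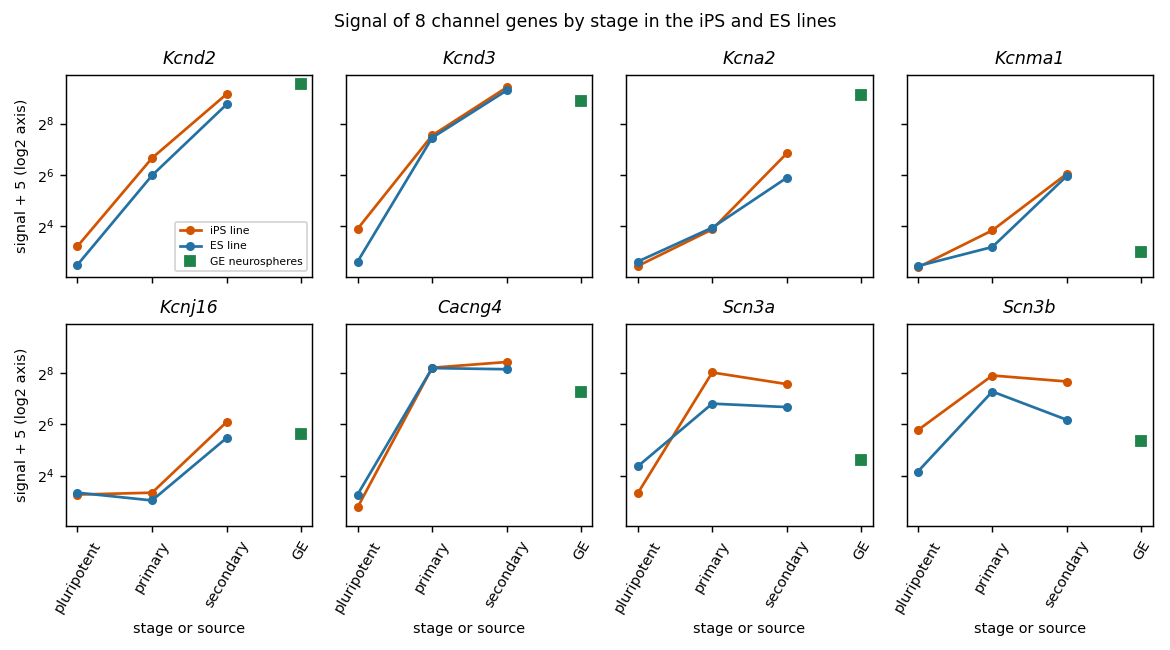
Each panel plots signal + 5 on a log2 axis for 1 channel gene in pluripotent cells, primary and secondary neurospheres, with 1 line for the iPS and 1 for the ES series and a square for GE neurospheres. Kcnd2, Kcnd3, Kcna2, Kcnma1 and Kcnj16 are higher in secondary than in primary neurospheres in both lines, and Cacng4, Scn3a and Scn3b are already high in primary neurospheres.

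In pluripotent cells against fibroblasts 15 of 79 channel genes were called (with 39.1% of all genes called), 7 higher and 8 lower, where 19.6% of all genes were higher and 19.6% lower. Kcnk1 had 194 and 161 in iPS and ES cells and 0.6 in fibroblasts (5.02 ± 0.78, adjusted p = 0.00179), and Kcnk5 had 96.8 and 158 in iPS and ES cells and 6.7 in fibroblasts (3.46 ± 0.74, adjusted p = 0.00698). Kcnab1, a beta subunit that speeds inactivation of Kcna pores, had 7.3 and 5.9 in iPS and ES cells and 102 in fibroblasts (-3.21 ± 0.58, adjusted p = 0.00316). Kcne4 and Kcnj15 were lower in pluripotent cells as well (-4.71 and -4.10), as was Cacna2d1 (-3.12 ± 0.78, adjusted p = 0.0133). With a common median, 12 of 20 calls were higher.

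Within the induced neurospheres, no channel gene was called between the adult- and embryonic-derived pairs by limma, where 0.47% of all genes were called, 0.066% higher and 0.404% lower in the adult-derived pair, and 8 of 79 had an unadjusted p under 0.05 (10.1%, with 11.7% of all genes). The lowest of their adjusted p-values was that of Cacna1h, at 1.7 and 0.9 in the adult-derived and 11.5 and 17 in the embryonic-derived pair (-1.60 ± 0.34, adjusted p = 0.114). Kcnip4, which had the largest difference, was at 31.9 and 67.7 in the adult-derived and 8.9 and 5.4 in the embryonic-derived pair (2.11 ± 0.61, adjusted p = 0.227). No array shares a medium across the 2 pairs except adult-derived 2 and embryonic-derived 3, both with LIF, so 1 array a side remains at matched medium. The media were compared without a test, as each was on 1 array of its pair. With EGF and cAMP against LIF in the adult-derived pair, 5 channel genes were higher and 7 lower by 1 or more (15.2%, with 10.8% of all genes past that size in either direction). With LIF and cAMP against LIF in the embryonic-derived pair, 3 were higher and 6 lower (11.4%, with 4.12% of all genes). Among those, Kcnn4 alone also reached 100 on 1 of the arrays compared, in both pairs. It had 190.5 with EGF and cAMP against 82.4 with LIF in the adult-derived pair, a difference of 1.16, and 351 with LIF and cAMP against 113 with LIF in the embryonic-derived pair, a difference of 1.60.

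Other genes of channel function were listed beside the subunits, namely 42 partners, regulators and related transporters, of which 31 were tested. In induced neurospheres 12 of the 31 fell against secondary and 12 against primary neurospheres (38.7% each, with 16.7% and 14.3% of all genes lower) and 9 against GE neurospheres (29.0%, with 12.8% of all genes lower). Those that rose were 4, 4 and 2 in the same order (12.9%, 12.9% and 6.45%, with 17.0%, 15.6% and 15.7% of all genes higher). Against pluripotent cells 7 rose and 2 fell (22.6% and 6.45%, with 20.4% and 9.79% of all genes), and against fibroblasts 7 rose and 1 fell (22.6% and 3.23%, with 15.0% and 8.23% of all genes). Cntn1, an adhesion molecule that binds sodium channel beta subunits, had 15.4, 10.9, 15.3 and 15.1 in induced neurospheres, against 1023 and 510.3 in secondary neurospheres (-5.25 ± 0.32, adjusted p = 4.73e-05). Fgf12, an intracellular factor that binds sodium pores, had 0.5, 1.6, 0.3 and 0.9 in induced neurospheres, against 69.9 and 67 in secondary neurospheres (-3.66 ± 0.40, adjusted p = 0.000379). Slc12a5, the neuronal chloride exporter, had 10.1, 11.8, 10.7 and 15.4 in induced neurospheres, against 443 and 168 in primary neurospheres (-4.05 ± 0.43, adjusted p = 0.000393). Itpr3, a calcium release channel of the endoplasmic reticulum, went the other way, with 241, 251, 368 and 330.5 in induced neurospheres, against 6.6 and 25.1 in secondary and 8.7 and 34.3 in primary neurospheres (3.68 ± 0.48, adjusted p = 0.000867 against primary). Rest, the repressor of many neuronal genes, had 320.1, 606, 659 and 531 in induced neurospheres and 793 and 1442 in iPS and ES cells. It had 96.7 and 412 in primary, 176 and 238 in secondary and 193 in GE neurospheres and 223 in fibroblasts. It fell in primary neurospheres against pluripotent cells (-2.38 ± 0.61, adjusted p = 0.0213), and its differences between induced and secondary (1.30 ± 0.53), primary (1.32 ± 0.53) or GE neurospheres (1.38 ± 0.69) were not called.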

How the data were processed

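RNA from 12 samples was hybridised to Affymetrix mouse arrays with 45101 probe sets. The deposited values are linear intensities that the authors made with Affymetrix Expression Console 1.1 and its MAS5 method (per the submitters' processing notes), scaled to a 2% trimmed mean of 100. Array scanning details and quality calls were not given in the sources used here. Probe sets were named through the platform annotation, where 34945 had 1 symbol, 932 several and 9160 none, besides 64 controls. Genes with no signal of 20 or more were left out. The values were fitted as log2(signal + 5) over 7 groups with limma 3.58.1 in R 4.3.3 (5 residual degrees of freedom, moderated variance), with induced neurospheres as the mean of both pairs and Benjamini-Hochberg adjustment over 13627 genes. The fit was tested on simulated data.

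The channel genes, marker lists and partner list were chosen with earlier results of these data known. The rule for naming genes took, per comparison, up to 10 highest and 10 lowest called differences without overlap between arrays. It added a fixed set of 35 (28 kept, 3 below 20 and 4 not analysed here), and a gene named in one comparison is described in others. Genes marked as named after their values were seen were added outside this rule. Some others are named only for how they stood to the filter. The same line (iPS, replicate 1, or ES, replicate 2) pairs the pluripotent, primary and secondary arrays. Their deviations from the group means correlated over all genes at 0.252 (pluripotent and primary), 0.0582 (pluripotent and secondary) and 0.425 (primary and secondary). Alternatives varied the pseudocount, filter, scaling, probe set choice, groups fitted, line as a block and arrays left out. Promoter windows are from RefSeq on GRCm38.p6.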

Additional observations from a re-analysis of the deposited data

How the results depend on the processing

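Counts of channel genes called are given here in the order induced against fibroblasts, GE, pluripotent, primary and secondary neurospheres or cells, primary against pluripotent, secondary against primary, secondary against GE, pluripotent against fibroblasts, and the F test. With line as a replicate block, which pairs the iPS and ES series, the counts were 18, 31, 14, 41, 45, 35, 5, 4, 17 and 57, all within 1.5 times those without it, and the block gave 0 calls between the adult- and embryonic-derived pairs. A filter at 100 left 29 channel genes to test, with 9, 14, 6, 18, 19, 15, 3 (secondary against primary), 9 (pluripotent against fibroblasts) and 24 calls by the F test. Only the embryonic-derived pair gave 6 calls against pluripotent cells. Fitting only the groups compared, with fewer residual degrees of freedom, gave 16 calls for primary against pluripotent, 0 for secondary against primary, 0 for secondary against GE and 9 for pluripotent against fibroblasts. For secondary against primary neurospheres a pseudocount of 1 gave 1 call, a pseudocount of 20 gave 9 and testing every probe set on its own gave 8, and the cause was not tested. Leaving out 1 array at a time gave 13 to 17, 22 to 28, 5 to 14, 20 to 37, 28 to 43, 14 to 33, 0 to 7, 0 to 3, 13 to 17 and 44 to 51 calls. Averaging the probe sets of Cacnb1 turned its difference to -0.18 for induced against primary neurospheres and to 0.042 for primary against pluripotent cells, where the 2 of its 4 probe sets that reached 20 had opposite signs. Of 336 pairs of a named gene and a comparison, 147 were called. Genes near a signal of 20 are close to the background of these arrays, and small differences there were not detectable.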
